A study of Mus musculus with 6 samples.

Results

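Expression of 33 genes of sterol synthesis, uptake and transport was compared between KLRG1-negative and KLRG1-positive innate lymphoid cells (ILCs) of the mouse lung. The genes were taken from a list of symbols, and all 33 were found among the 52636 genes of the deposited count table. Each group had 3 bulk RNA-seq libraries. Mice of both groups were wild type on the C57BL/6 background and carried the 4get allele, in which green fluorescent protein reports Il4 transcription. Both groups received 500 ng of interleukin-33 (IL-33) intraperitoneally for 4 days and were killed on day 5, so that no untreated cells enter the comparison. Cells lacking lineage markers and bearing CD90 were sorted by KLRG1, a surface receptor of activated ILCs, to a stated purity above 90%. The labels' protocols name the second sort KLRG1-high. The sources used here give neither an age for the mice nor the antibodies of the lineage panel. Whether the 3 libraries of each group represent different animals is not stated, so each p-value below reflects the variation among these libraries alone, part of which may be technical.

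Cholesterol is built from acetyl-CoA through mevalonate, isoprenoid units, squalene and lanosterol by enzymes of the cytosol and the endoplasmic reticulum. When sterol in that membrane is low, the escort protein SCAP carries the transcription factor SREBP2 to the Golgi for cleavage, and the released fragment switches on the synthesis genes. INSIG proteins hold the complex back when sterol is plentiful. Excess sterol is esterified by SOAT1 or exported by ABCA1 and ABCG1, whose genes are driven by the liver X receptors (LXRs) once oxysterols bind them. Group 2 ILCs (ILC2s), the main lung ILCs that respond to IL-33, take up and store lipid when activated.

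Assigned reads per library ran from 17323004 to 23946073. Levels are given as CPM, read counts scaled to a common total, on library sizes scaled by the trimmed mean of M values. Differences are log2 fold changes of KLRG1-positive over KLRG1-negative cells from edgeR's quasi-likelihood test. Their standard error (SE) was derived as the absolute log2 fold change divided by the square root of the test's F statistic. Adjusted p-values are Benjamini-Hochberg values over the 15197 genes tested, read at 0.05. Klrg1 itself was at 13.1, 193 and 73.2 CPM in KLRG1-negative libraries 1, 2 and 3 and at 1485, 1786 and 1327 CPM in KLRG1-positive libraries 1, 2 and 3, so that the groups did not overlap (log2 fold change 4.04 ± 0.93 SE, edgeR adjusted p = 0.0939). Markers of other cell types differed between the groups in both directions. The summed level of 7 fibroblast markers was 3860 to 10794 CPM in the KLRG1-negative and 17.7 to 47.6 CPM in the KLRG1-positive libraries. For 7 B cell markers the ranges were 5345 to 22151 and 2077 to 7191 CPM, and for 8 T cell markers 1065 to 4163 and 309 to 365 CPM. The summed level of 14 ILC2 markers was 1701 to 4223 CPM in KLRG1-negative and 8102 to 9769 CPM in KLRG1-positive libraries. Klrg1 is 1 of these 14, so part of that difference was set by the sort. Of the 14, 12 were higher in the KLRG1-positive library of all 3 same-numbered pairs, where 21.7% of all genes were. Thy1 was lower in all 3 pairs, where 25.1% of all genes were, and Icos was higher in 1 of 3. The sum of 5 mast cell and basophil markers was also higher, at 13.3 to 31.0 against 32.3 to 108 CPM. Of these 5, Cpa3 and Fcer1a were higher in the KLRG1-positive library of all 3 same-numbered pairs. Mcpt8, Ms4a2 and Tpsb2 were higher in 0 of 3. The sum of 7 NK cell and ILC1 markers was lower, at 483 to 1573 against 116 to 435 CPM. The macrophage, endothelial and epithelial sums overlapped.

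The regulatory sequence in front of 6 of the sterol genes is shown first, because they include both genes that passed the test (Osbpl3 and Abca1), 3 synthesis genes whose values the results turn on and, in Hmgcs1, the sterol regulatory element found in this set. The sequences are those of RefSeq on GRCm38.p6, 5′ to 3′ on the gene's own strand. Each is the part of the 250 bases before a RefSeq start that lies before the gene. The windows searched below run from 250 bases before to 50 bases after such a start. Hmgcs1, which makes HMG-CoA for the mevalonate pathway, is on the plus strand at chr13:119690101-119690350. The others are on the minus strand, Cyp51 at chr5:4104747-4104947, Ebp at chrX:8193513-8193762, Sc5d at chr9:42264301-42264550, Osbpl3 at chr6:50456202-50456420 and Abca1 at chr4:53159896-53160145. Capitals mark the sterol regulatory element TCACNCCAC, the E-box CACGTG and the CCAAT box (CCAAT or, on the other strand, ATTGG).
Hmgcs1: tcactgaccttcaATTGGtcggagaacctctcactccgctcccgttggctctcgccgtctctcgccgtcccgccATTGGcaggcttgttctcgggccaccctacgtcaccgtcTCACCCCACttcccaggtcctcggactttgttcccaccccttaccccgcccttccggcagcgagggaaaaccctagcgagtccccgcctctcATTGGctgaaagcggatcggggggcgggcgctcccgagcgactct
Cyp51: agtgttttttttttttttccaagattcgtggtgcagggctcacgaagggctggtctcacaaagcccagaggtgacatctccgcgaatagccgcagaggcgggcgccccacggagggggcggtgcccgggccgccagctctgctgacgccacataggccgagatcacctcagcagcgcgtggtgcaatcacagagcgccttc
Ebp: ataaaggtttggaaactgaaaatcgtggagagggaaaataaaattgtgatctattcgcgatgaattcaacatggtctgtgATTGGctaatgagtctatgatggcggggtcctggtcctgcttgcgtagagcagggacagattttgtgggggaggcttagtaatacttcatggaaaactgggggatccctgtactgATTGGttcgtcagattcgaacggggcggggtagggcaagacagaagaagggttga
Sc5d: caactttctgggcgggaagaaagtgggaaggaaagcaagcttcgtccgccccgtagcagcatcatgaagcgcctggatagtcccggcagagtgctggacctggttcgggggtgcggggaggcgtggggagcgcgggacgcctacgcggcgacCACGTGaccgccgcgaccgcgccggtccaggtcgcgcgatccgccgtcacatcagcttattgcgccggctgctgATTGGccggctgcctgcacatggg
Osbpl3: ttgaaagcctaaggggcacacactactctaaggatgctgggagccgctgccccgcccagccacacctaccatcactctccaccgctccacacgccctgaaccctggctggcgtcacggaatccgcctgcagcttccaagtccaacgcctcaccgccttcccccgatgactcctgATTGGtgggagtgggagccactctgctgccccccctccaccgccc
Abca1: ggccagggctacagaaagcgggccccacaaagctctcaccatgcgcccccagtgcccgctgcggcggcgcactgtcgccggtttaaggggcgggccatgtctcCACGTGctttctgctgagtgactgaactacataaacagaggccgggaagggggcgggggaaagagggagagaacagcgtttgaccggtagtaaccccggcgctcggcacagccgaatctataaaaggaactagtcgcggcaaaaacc

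A promoter window was matched for 27 of the 33 members, which gave 36 windows. The sterol regulatory element, the sequence that SREBPs bind, was present on either strand in 1 of 36 member windows, that of Hmgcs1, and in 1.24% of the 32851 windows of all genes. The E-box was present in 8 of 36 member windows and in 7.15% of all windows. In the sequences above it stands once in Sc5d and once in Abca1. The CCAAT box, bound by NF-Y, a frequent partner of SREBPs, was present in 22 of 36 member windows and in 37.4% of all windows. Hmgcs1 holds it 3 times in the printed stretch, Ebp 2 times and Osbpl3 and Sc5d once each. The printed stretch of Cyp51 holds none of the capitalised motifs. Its window does hold a CCAAT box, at -29 from the RefSeq start, in bases not printed because they lie inside the gene. The GC box GGGCGG, left in lower case, was present in 28 of 36 member windows and in 35.7% of all windows. The LXR element DR4 (2 copies of AGGTCA 4 bases apart, searched with up to 1 mismatch in each copy) was in 0 of 36 member windows and in 1.75% of all windows. Elements that depart further from these letters, as the LXR element known in the Abca1 promoter does, are missed by this search. None of these motifs overlaps another in the printed sequences. A match here is a match of letters and no measure of binding.

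Of the 33 sterol genes, 1 rose in KLRG1-positive cells (Osbpl3), where 0.125% of all genes tested rose, and 1 fell (Abca1), where 1.21% of all genes fell, in edgeR's test. The other 31 did not pass the adjusted threshold. With same-numbered libraries paired in the fit, 0 rose and 0 fell (7 and 2 at an unadjusted p under 0.05), where 0.0% and 0.349% of all genes passed. At an unadjusted p under 0.05 in that paired fit, 1025 of the 15197 genes were higher and 1876 lower. At an unadjusted p under 0.05, 5 were higher (Osbpl3, Cyp51, Ebp, Sc5d and Soat1; 4.19% of all genes) and 2 lower (Abca1 and Nr1h3; 11.5%). The groups did not overlap for 6 members that were higher in KLRG1-positive libraries (9.46% of all genes) and 2 that were lower (15.2%). The log2 fold change was positive for 23 of 33 members and for 46.5% of all genes, with a median of 0.22 over the members and -0.05 over all genes tested. It lay between -1 and 1 for 29 of 33 members. Outside that range were Osbpl3, Abca1, Nr1h3 and the sparsely counted Idi1. In these bulk samples, fewer cells with a transcript and less transcript per cell cannot be told apart.

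**Figure D1:**
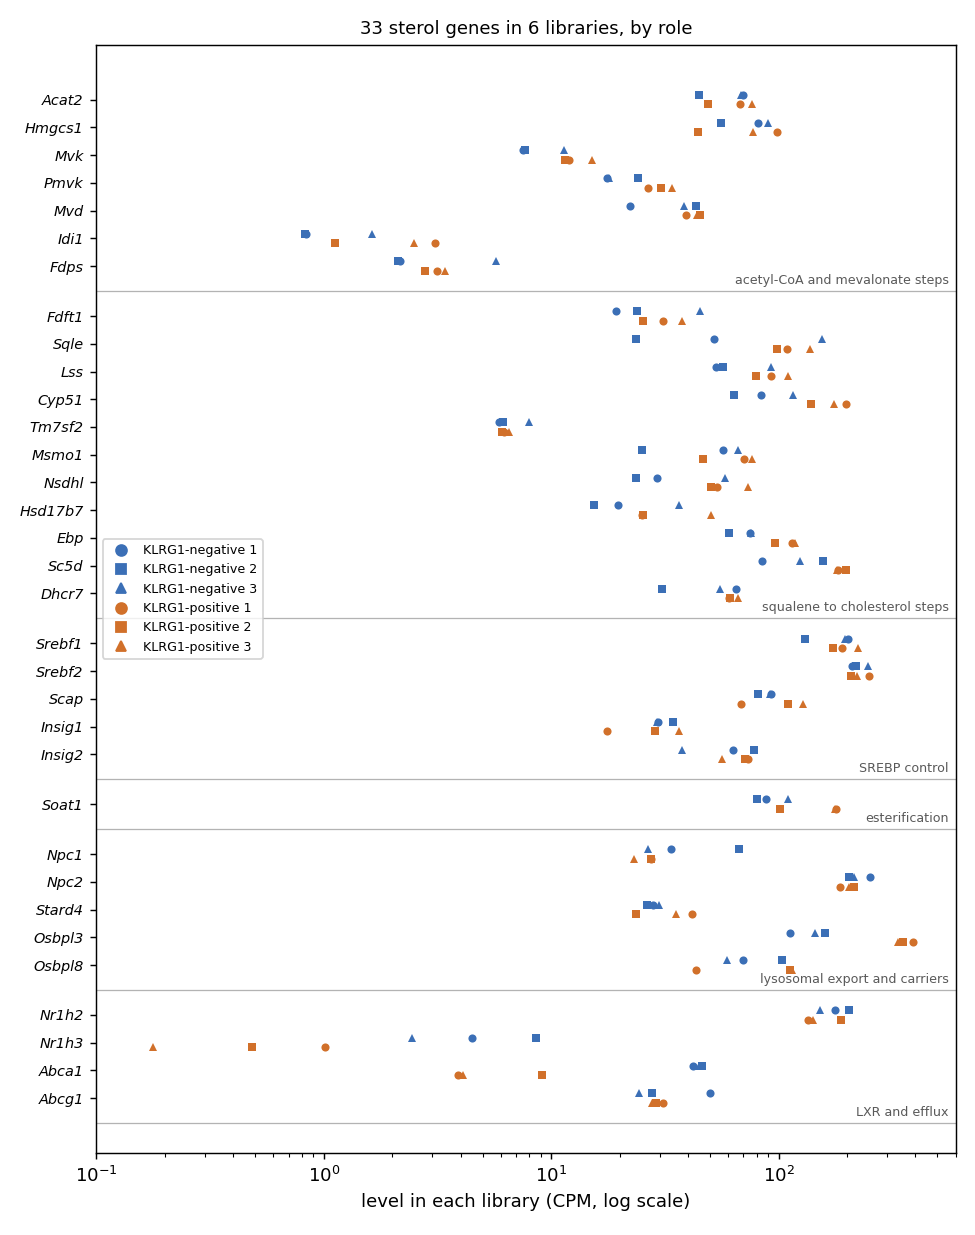
Level of each of the 33 sterol genes in CPM on a log axis, grouped by role, with KLRG1-negative libraries in blue and KLRG1-positive libraries in orange and the library number given by the marker shape. The orange points lie right of the blue points for Osbpl3, Cyp51, Ebp, Sc5d, Mvk and Pmvk, and left of them for Abca1 and Nr1h3.

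Osbpl3 encodes OSBP-related protein 3, a lipid-binding protein that works where the endoplasmic reticulum touches the plasma membrane. The gene lies on chromosome 6 from 50293330 to 50456201 (GRCm38, minus strand). It was at 112, 160 and 144 CPM in KLRG1-negative libraries 1, 2 and 3 and at 391, 351 and 334 CPM in KLRG1-positive libraries 1, 2 and 3. Every KLRG1-positive library was above every KLRG1-negative one, and the spread within each group was small beside the gap. The mean was 139 ± 24.4 CPM (SD, n = 3) against 359 ± 29.0 CPM (SD, n = 3), a 2.59-fold higher level. Its log2 fold change was 1.37 ± 0.19 SE with an edgeR adjusted p = 0.0416. With the same-numbered libraries paired the adjusted p was 0.0823, and leaving out any 1 library gave 0.0646 to 0.152 with log2 fold changes of 1.25 to 1.60. No other gene of the annotation shares exon bases or a 50-base stretch of transcript with Osbpl3. The summed ILC2 markers, which include Klrg1 itself, were also higher in KLRG1-positive libraries (2.92-fold), although Thy1 among them was lower. The part of these markers in the difference of Osbpl3 was not tested.

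Osbpl8, a second OSBP-related protein of the same contact sites, was listed with it, as were Stard4, a soluble sterol carrier, and Npc1 and Npc2, which pass cholesterol out of the lysosome. None of these 4 passed the test, with adjusted p-values of 0.479 (Npc1), 0.782 (Stard4), 0.783 (Npc2) and 0.889 (Osbpl8) in edgeR. Npc2 was at 253, 203 and 214 CPM in KLRG1-negative libraries 1, 2 and 3 and at 187, 215 and 205 CPM in KLRG1-positive libraries 1, 2 and 3. Its groups overlapped, and the log2 fold change of -0.14 ± 0.17 SE was smaller than its error. Npc1 had a log2 fold change of -0.71 ± 0.39 SE, with KLRG1-negative library 2 highest of the 6 at 67.0 CPM and the rest between 23.2 and 33.5 CPM. The summed level of these 5 genes was 474 to 560 CPM in KLRG1-negative and 690 to 730 CPM in KLRG1-positive libraries. Osbpl3 alone made up 334 to 391 CPM of the second range.

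Of the 4 genes of LXR control and efflux, Abca1 fell and 3 did not pass. All 4 had a negative log2 fold change, where 46.5% of all genes had a positive one, but Nr1h2 and Abcg1 lay within about 1 SE of 0. Their sign changed when KLRG1-negative library 2 (Nr1h2, 0.0119) or 1 (Abcg1, 0.164) was left out. Abca1 encodes the membrane pump that hands cholesterol and phospholipid to lipid-poor apolipoproteins. It spans bases 53030787 to 53159895 of chromosome 4 (GRCm38, minus strand). Its level was 41.9, 45.9 and 44.7 CPM in KLRG1-negative libraries 1, 2 and 3 and 3.88, 9.08 and 4.08 CPM in KLRG1-positive libraries 1, 2 and 3. The KLRG1-negative libraries were nearly equal, and even the highest KLRG1-positive library, number 2, lay far under them. The mean was 44.2 ± 2.03 CPM (SD, n = 3) against 5.68 ± 2.94 CPM (SD, n = 3), a 7.78-fold difference. Abca1 fell by 2.96 on the log2 scale (0.43 SE, edgeR adjusted p = 0.0430). Paired by number the adjusted p was 0.0686, and leaving out any 1 library gave 0.0708 to 0.164, all with a negative log2 fold change.

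Nr1h3 encodes LXR alpha, the inducible receptor of the pair that drives Abca1. It was at 4.51, 8.56 and 2.45 CPM in KLRG1-negative libraries 1, 2 and 3 and at 1.01, 0.481 and 0.178 CPM in KLRG1-positive libraries 1, 2 and 3. The groups did not overlap, at low levels. The log2 fold change was -3.21 ± 0.91 SE with an edgeR adjusted p = 0.149, and DESeq2's Wald test gave an adjusted p = 0.00359. Nr1h2, encoding LXR beta, the widely expressed receptor, was at 177, 203 and 153 CPM and at 135, 188 and 142 CPM in libraries 1, 2 and 3 of the KLRG1-negative and KLRG1-positive groups. Those ranges overlapped, and its log2 fold change was -0.20 ± 0.21 SE (edgeR adjusted p = 0.760). Abcg1, a pump that passes cholesterol to mature high-density lipoprotein, was at 50.2, 27.8 and 24.4 CPM against 30.9, 28.8 and 27.6 CPM, in the same order. Only KLRG1-negative library 1 stood above the others, and the log2 fold change was -0.23 ± 0.34 SE (edgeR adjusted p = 0.839). Abca1 and Abcg1 therefore had very different values although both are LXR targets. Whether their log2 fold changes differ was not tested.

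Macrophages and fibroblasts also express Abca1 and Nr1h3, so their markers are given beside these genes. The summed level of 10 macrophage and monocyte markers was 386, 202 and 103 CPM in KLRG1-negative libraries 1, 2 and 3 and 302, 250 and 56.8 CPM in KLRG1-positive libraries 1, 2 and 3, so that the groups overlapped. Of the 8 tested, 2 had a positive log2 fold change (46.5% of all genes) and 6 a negative one. For 2 of the 8, Cd68 among them, KLRG1-positive libraries were lower without overlap (15.2% of all genes). Fcgr1 was at 0 in all KLRG1-negative libraries. The 7 fibroblast markers summed to 3860, 6684 and 10794 CPM in KLRG1-negative libraries 1, 2 and 3 and to 47.6, 24.7 and 17.7 CPM in KLRG1-positive libraries 1, 2 and 3, and no marker was at 0 in all 3 libraries of a group. The B cell sum was 18844, 5345 and 22151 CPM against 3299, 2077 and 7191 CPM, and the T cell sum 4163, 1783 and 1065 CPM against 339, 365 and 309 CPM. The NK cell and ILC1 sum was 1573, 904 and 483 CPM against 435, 116 and 184 CPM. The fibroblast, T cell and NK cell sums were lower in KLRG1-positive cells without overlap, as Abca1 and Nr1h3 were, and the B cell sum was lower with overlap. The part of these cells in the difference was not tested.

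**Figure D2:**
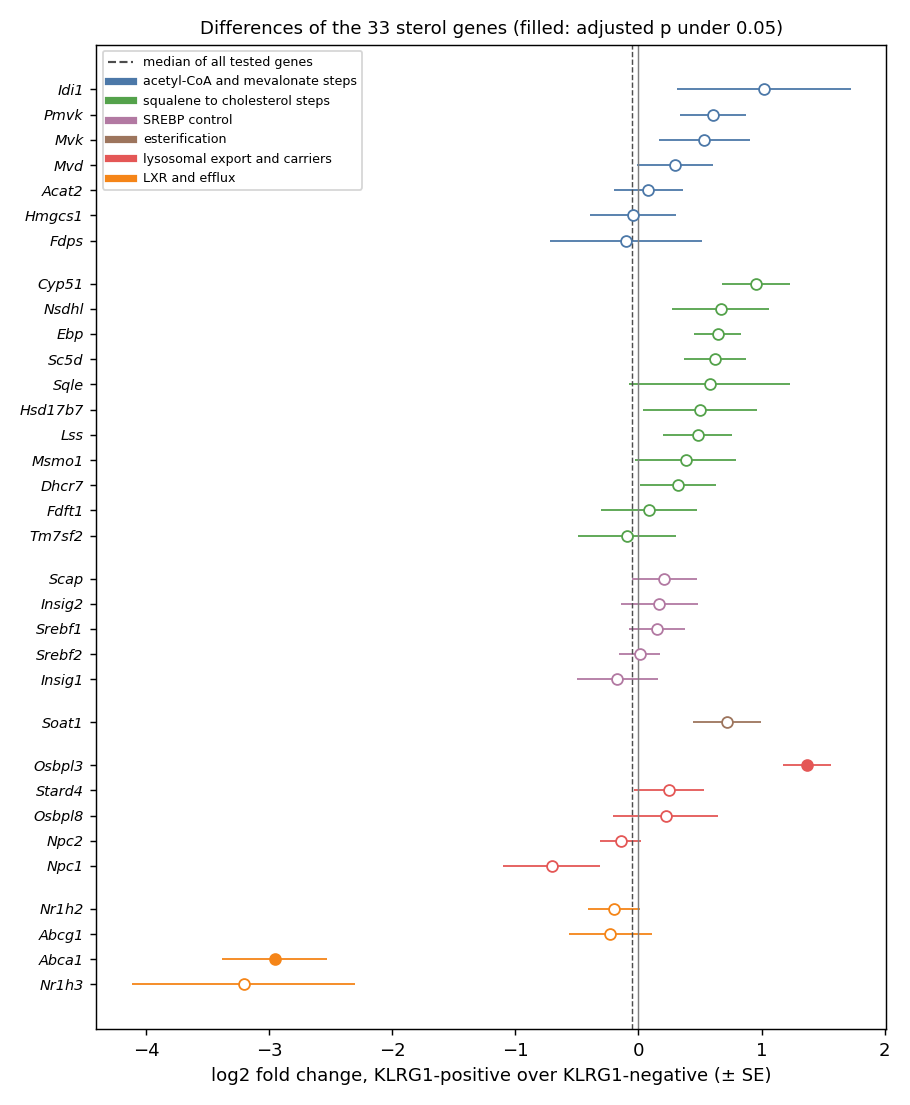
Log2 fold change of each sterol gene, KLRG1-positive over KLRG1-negative, with bars of 1 SE, coloured by role, with filled points for adjusted p under 0.05 and a dashed line at the median of all tested genes (-0.05). Osbpl3 at 1.37 and Abca1 at -2.96 are filled, and 10 of the 11 genes from squalene to cholesterol lie right of 0.

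The synthesis enzymes had mostly small positive log2 fold changes and none passed the adjusted threshold in edgeR. Of the 18 enzymes from acetyl-CoA to cholesterol, 15 had a positive log2 fold change, against 8 of the 15 other members and 46.5% of all genes. Their median was 0.49, beside 0.01 for the other members. At an unadjusted p under 0.05, 3 of the 18 were higher and 0 lower in edgeR, where 4.19% of all genes were higher and 11.5% lower. In DESeq2's Wald test Cyp51 (adjusted p = 0.0450) and Ebp (adjusted p = 0.0394) passed, and Osbpl3, Abca1 and Nr1h3 were the other members that did. DESeq2 called 1.91% of its genes higher and 8.79% lower. The summed level of the 18 enzymes was 745, 665 and 1067 CPM in KLRG1-negative libraries 1, 2 and 3 and 1195, 1012 and 1284 CPM in KLRG1-positive libraries 1, 2 and 3. On this sum the groups overlapped, because KLRG1-negative library 3 was above KLRG1-positive library 2.

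The 7 genes that turn acetyl-CoA into farnesyl diphosphate had a median log2 fold change of 0.30, 5 of them positive, with adjusted p-values from 0.353 to 0.977 in edgeR. Acat2, the cytosolic thiolase that joins 2 acetyl-CoA, was at 69.8, 44.6 and 68.4 CPM in KLRG1-negative libraries 1, 2 and 3 and at 67.6, 48.9 and 76.7 CPM in KLRG1-positive libraries 1, 2 and 3. Its groups overlapped, with library 2 lowest in both (0.08 ± 0.28 SE, log2). Of the 50-base stretches of Acat2, 39.1% also occur in its near copy Acat3 or its neighbour Tcp1. Multi-mapping and ambiguous reads were left out of the counts, so the level of Acat2 is uncertain. Mvk and Pmvk, the kinases that phosphorylate mevalonate in turn, did not overlap between groups. Mvk was at 7.51, 7.69 and 11.4 CPM against 12, 11.5 and 15.1 CPM in libraries 1, 2 and 3. KLRG1-negative library 3 lay just under KLRG1-positive library 2, so its groups were barely apart. The log2 fold change of Mvk was 0.54 ± 0.37 SE (edgeR adjusted p = 0.585). Pmvk was at 17.6, 24.1 and 17.9 CPM against 26.7, 30.3 and 33.9 CPM (0.61 ± 0.27 SE, edgeR adjusted p = 0.353). Both kinases were thus 1.45-fold and 1.52-fold higher on average without passing the test.

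Mvd, the decarboxylase that follows them, was at 22.1, 43.5 and 38.4 CPM in KLRG1-negative libraries 1, 2 and 3 and at 39.0, 45.2 and 43.6 CPM in KLRG1-positive libraries 1, 2 and 3. Only KLRG1-negative library 1 was low, and the groups overlapped (0.30 ± 0.31 SE, log2). Hmgcs1, HMG-CoA synthase, whose promoter holds the sterol element, had a log2 fold change of -0.04 ± 0.35 SE. Idi1 and Fdps, which make and join the isoprenoid units, were counted at 0.828 to 5.72 CPM over the 6 libraries. For Fdps 26.2% and for Idi1 25.3% of the 50-base stretches occur in other genes, among them 7 and 4 pseudogenes. Reads that fit several places were left out of the counts, so the levels of these genes are uncertain.

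From squalene to cholesterol, 10 of 11 genes had a positive log2 fold change, with a median of 0.50, and 3 had groups that did not overlap. Cyp51 encodes lanosterol 14-alpha-demethylase, the cytochrome P450 of the pathway. It was at 84.1, 63.8 and 116 CPM in KLRG1-negative libraries 1, 2 and 3 and at 198, 139 and 175 CPM in KLRG1-positive libraries 1, 2 and 3. All KLRG1-positive libraries were above all KLRG1-negative ones, with library 2 lowest in both groups. The mean was 88.0 ± 26.3 CPM (SD, n = 3) against 171 ± 29.9 CPM (SD, n = 3), 1.94-fold higher. Its log2 fold change was 0.96 ± 0.28 SE (edgeR adjusted p = 0.158). Ebp, the sterol isomerase also known as emopamil-binding protein, was at 74.7, 60.6 and 75.5 CPM against 115, 96.4 and 118 CPM in libraries 1, 2 and 3. The groups did not overlap, and the log2 fold change was 0.64 ± 0.19 SE (edgeR adjusted p = 0.166). Sc5d, lathosterol 5-desaturase, was at 84.6, 157 and 124 CPM against 183, 198 and 180 CPM. The KLRG1-positive libraries were close together while KLRG1-negative library 1 was low, and the log2 fold change was 0.62 ± 0.25 SE (edgeR adjusted p = 0.308).

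The other 8 genes of this stretch were Fdft1 (squalene synthase), Sqle (squalene epoxidase), Lss (lanosterol synthase), Tm7sf2 (a sterol 14-reductase), Msmo1, Nsdhl and Hsd17b7 (removal of the C4 methyl groups) and Dhcr7 (the final 7-reductase). Their log2 fold changes ran from -0.09 to 0.67, with edgeR adjusted p-values of 0.506 to 0.963, and all 8 overlapped between groups. Sqle, singled out after its values were seen, had the largest SD of the synthesis genes among the KLRG1-negative libraries (69.7 CPM), at 52.0, 23.5 and 156 CPM in KLRG1-negative libraries 1, 2 and 3 and 109, 98.7 and 138 CPM in KLRG1-positive libraries 1, 2 and 3. The highest library of all 6 for Sqle was thus KLRG1-negative 3. Fdft1 shares 18.3% of its exon bases with Ctsb on the other strand, and Tm7sf2 shares 15.3% with Vps51. Since counting ignored strand and left out ambiguous reads, the levels of both are uncertain.

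Many synthesis genes were high or low in the same libraries. KLRG1-negative library 3 was the highest of its group for 13 of the 18 enzymes and for 35.6% of all genes tested. KLRG1-positive library 3 was the highest of its group for 13 of 18 and for 30.1% of all genes. Library 2 was the lowest of its group for 11 of 18 among KLRG1-negative libraries (35.9% of all genes) and for 13 of 18 among KLRG1-positive ones (36.0% of all genes). Over the 8 proliferation markers, the summed level was 1309, 934 and 1670 CPM in KLRG1-negative libraries 1, 2 and 3 and 2979, 1170 and 3280 CPM in KLRG1-positive libraries 1, 2 and 3. The order of libraries 2, 1 and 3 from low to high was the same for the proliferation sum and the enzyme sum in both groups. The part of proliferation in the levels of the synthesis genes was not tested. When each KLRG1-positive library was set against the KLRG1-negative library of the same number, 11 of the 18 enzymes were higher in all 3 pairs, where 21.7% of all genes were, and 0 were lower in all 3, where 25.1% of all genes were.

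**Figure D3:**
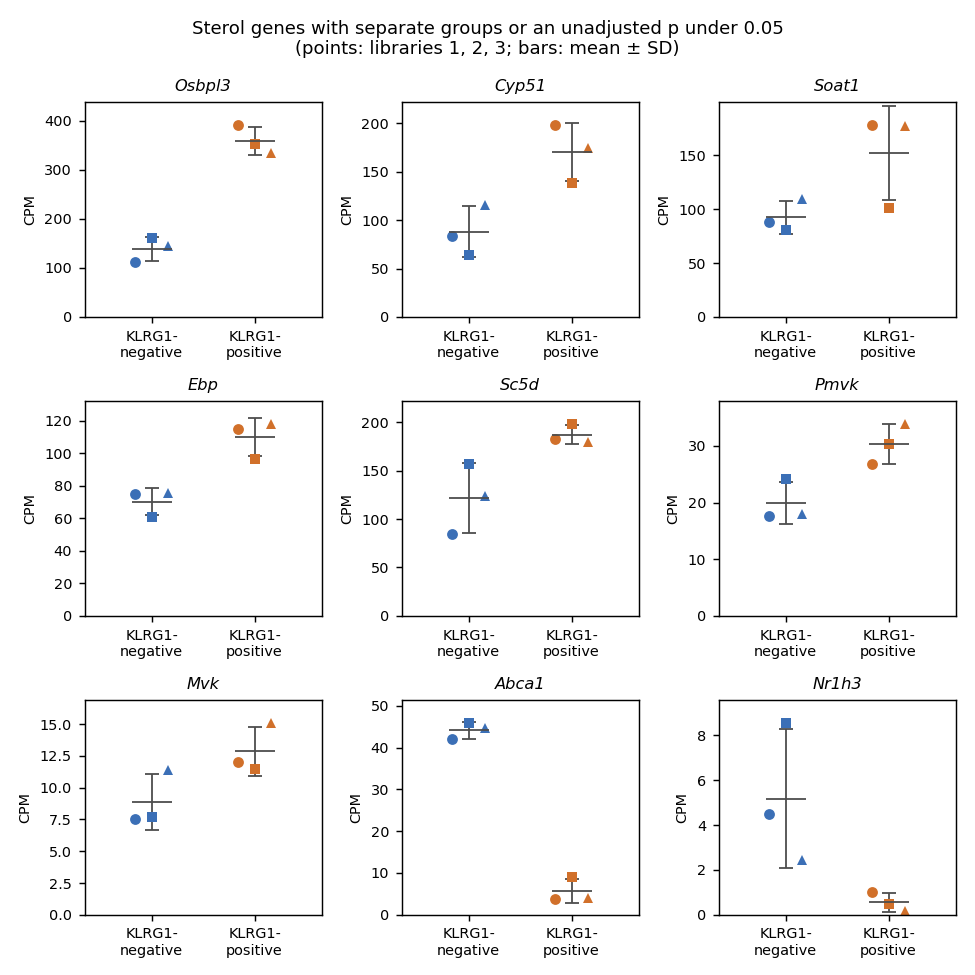
Level in CPM, on a linear axis from 0, of the 9 sterol genes with an unadjusted p under 0.05 or groups that do not overlap, with 1 point per library and a bar at the mean ± SD of the 3 libraries of a group. Abca1 drops from 44.2 to 5.68 CPM on average and Osbpl3 goes from 139 to 359 CPM, while Soat1 overlaps because KLRG1-positive library 2 lies at 102 CPM.

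Soat1 encodes the acyltransferase that turns cholesterol into storable ester. It was at 88.0, 80.3 and 110 CPM in KLRG1-negative libraries 1, 2 and 3 and at 178, 102 and 177 CPM in KLRG1-positive libraries 1, 2 and 3. KLRG1-positive libraries 1 and 3 were above the rest, but library 2 lay under KLRG1-negative library 3, so that the groups overlapped. The mean was 1.64-fold higher and the log2 fold change 0.72 ± 0.28 SE (edgeR adjusted p = 0.283).

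The genes that control SREBP were the flattest. Srebf1, Srebf2, Scap, Insig1 and Insig2 had log2 fold changes from -0.17 to 0.21, with edgeR adjusted p-values of 0.811 to 0.991 and overlapping groups. Srebf2, encoding SREBP2, was at 211, 218 and 247 CPM in KLRG1-negative libraries 1, 2 and 3 and at 251, 208 and 222 CPM in KLRG1-positive libraries 1, 2 and 3. The means were 225 ± 19.2 and 227 ± 22.1 CPM (SD, n = 3 each), and the log2 fold change of 0.01 ± 0.16 SE became -0.01 when libraries were scaled by size alone. Srebf1, whose products drive fatty acid genes more than sterol genes, was at 203, 131 and 196 CPM against 191, 174 and 224 CPM in libraries 1, 2 and 3. Those groups overlapped, with library 2 lowest in both (0.15 ± 0.23 SE, log2). The transcripts of these genes do not show how much SREBP protein was cleaved.

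Per kilobase of gene length, Nr1h2 was the most abundant of the 33 over the 6 libraries at 49.6 RPKM (the CPM divided by the gene's length in kilobases). Srebf2 at 45.3, Npc2 at 39.1, Ebp at 39.0 and Srebf1 at 33.1 RPKM followed. In KLRG1-negative cells the first 4 were Nr1h2 at 53.0 ± 7.57, Srebf2 at 45.2 ± 3.85, Npc2 at 41.1 ± 4.82 and Srebf1 at 31.3 ± 7.09 RPKM (SD, n = 3 each). In KLRG1-positive cells they were Ebp at 47.5 ± 5.08, Nr1h2 at 46.2 ± 8.59, Srebf2 at 45.4 ± 4.43 and Osbpl3 at 39.8 ± 3.22 RPKM (SD, n = 3 each). The first 3 of the KLRG1-positive order lay within 1 SD of each other. Osbpl3 was 12th in KLRG1-negative cells at 15.4 ± 2.71 RPKM, and Abca1 went from place 27 at 4.26 ± 0.196 RPKM to place 32 at 0.548 ± 0.284 RPKM. The median coefficient of variation of the sterol genes was 29.5% in KLRG1-negative and 17.5% in KLRG1-positive libraries. Over the 14095 tested genes with a mean of at least 1 CPM it was 36.0% and 27.5%.

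**Figure D4:**
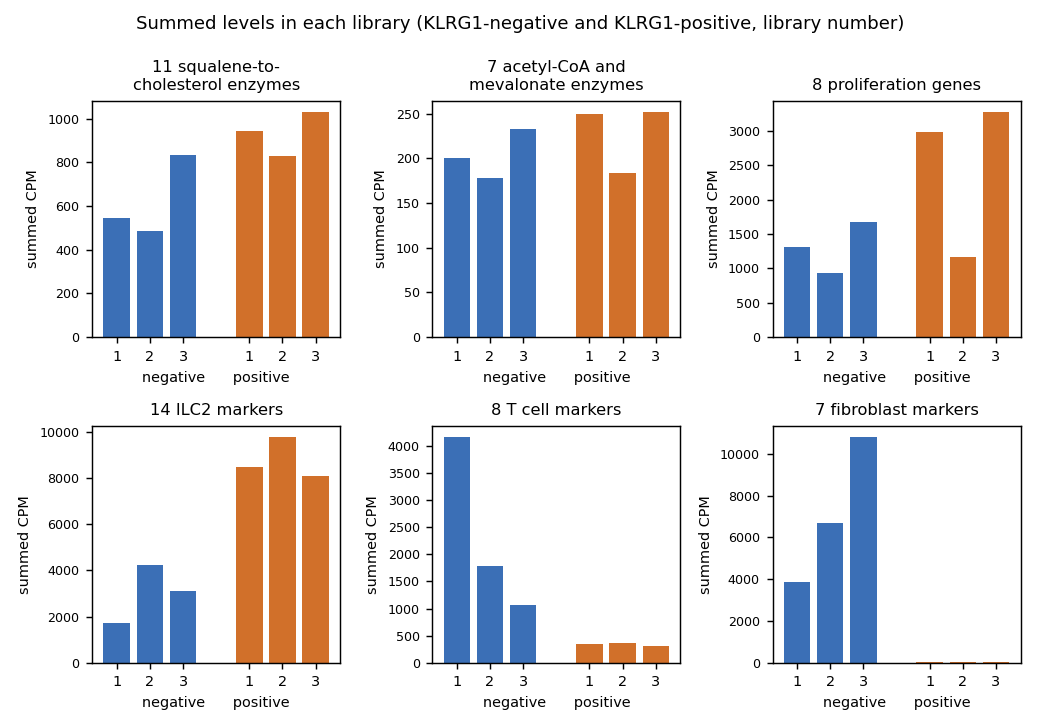
Summed level in CPM of the 2 groups of synthesis enzymes and of the proliferation, ILC2, T cell and fibroblast marker lists, 1 bar for each of the 6 libraries (KLRG1-negative in blue, KLRG1-positive in orange), each panel on its own axis from 0. The squalene to cholesterol genes sum to 486 to 834 CPM in KLRG1-negative and 828 to 1031 CPM in KLRG1-positive libraries, while the fibroblast markers sum to 3860 to 10794 and 17.7 to 47.6 CPM.

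The neighbouring parts of sterol biology were read from 7 further lists, of which 63 genes had a row and 59 were tested. In edgeR 1 rose (0.125% of all genes), 1 fell (1.21%) and 57 did not pass. The log2 fold change was positive for 29 and negative for 30, near the 46.5% positive of all genes. Lpcat3, an LXR target that puts polyunsaturated chains into membrane phospholipid, rose. It was at 116, 142 and 123 CPM in KLRG1-negative libraries 1, 2 and 3 and at 311, 256 and 277 CPM in KLRG1-positive libraries 1, 2 and 3, with no overlap (1.15 ± 0.17 SE, log2, edgeR adjusted p = 0.0430). Of the 7 LXR partners and targets, 6 did not pass, among them Arl4c (-1.50 ± 0.35 SE, log2), Mylip (-1.39 ± 0.47 SE, log2) and Abca7 (0.41 ± 0.19 SE, log2). With same-numbered libraries paired the adjusted p of Lpcat3 was 0.0863, with libraries scaled by size alone 0.0549, and leaving out any 1 library gave 0.0872 to 0.152. The ILC2 marker sum, which includes Klrg1, was also higher in KLRG1-positive libraries (2.92-fold), although Thy1 within it was lower. The part of that sum was not tested.

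Lrp1, a large endocytic lipoprotein receptor abundant in fibroblasts and macrophages, fell. It was at 34.4, 104 and 77.7 CPM in KLRG1-negative libraries 1, 2 and 3 and at 3.49, 5.13 and 1.29 CPM in KLRG1-positive libraries 1, 2 and 3 (-4.45 ± 0.69 SE, log2, edgeR adjusted p = 0.0470). With same-numbered libraries paired its adjusted p was 0.0856, and leaving out any 1 library gave 0.0615 to 0.153. The fibroblast sum given above was also lower in KLRG1-positive libraries, and its part was not tested. Of the 7 lipoprotein receptor and lysosomal genes the other 6 did not pass, with Vldlr at a log2 fold change of -4.37 ± 0.75 SE (edgeR adjusted p = 0.0542). Vldlr was at 4.85 to 7.37 CPM in KLRG1-negative and 0.107 to 0.450 CPM in KLRG1-positive libraries. Nceh1, a cholesteryl ester hydrolase, was 1.45-fold higher on average (0.53 ± 0.20 SE, log2, edgeR adjusted p = 0.274).

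In the remaining lists 0 genes passed in edgeR. At an unadjusted p under 0.05 they held 1 higher gene (4.19% of all genes) and 5 lower ones (11.5%). Of the 10 lipogenic SREBP targets, Acly and Fasn, the highest in mean CPM, had log2 fold changes of 0.05 ± 0.31 SE and 0.04 ± 0.37 SE. Scd1, the stearoyl-CoA desaturase, was at 54.3, 40.5 and 233 CPM in KLRG1-negative libraries 1, 2 and 3 and at 11, 2.51 and 8.66 CPM in KLRG1-positive libraries 1, 2 and 3 (edgeR adjusted p = 0.0996). The 16 oxysterol-binding and membrane contact genes, relatives of Osbpl3 among them, had a median log2 fold change of -0.02 over the 15 tested. Stard3nl (0.81 ± 0.23 SE, log2) and Osbpl1a (-1.44 ± 0.62 SE, log2) had the smallest p-values of that list, and neither passed. Of the 7 oxysterol genes 4 were tested, all with a negative log2 fold change. Cyp7b1, whose enzyme acts on oxysterols, was at 1.17, 2.88 and 8.70 CPM in KLRG1-negative libraries 1, 2 and 3 against 0, 0 and 0.0444 CPM (edgeR adjusted p = 0.0670). The fibroblast sum was lower in KLRG1-positive libraries as well, and its part in the values of Cyp7b1 was not tested. Gpr183, the receptor for the oxysterol that guides lymphocytes, was at 145 to 280 against 126 to 179 CPM. The 9 isoprenoid and late sterol genes tested included Lbr, which can replace Tm7sf2 as sterol 14-reductase, at 463 to 792 against 649 to 994 CPM (0.38 ± 0.26 SE, log2). The 7 SREBP proteases and degradation partners had adjusted p-values of 0.462 to 0.931 in edgeR.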

How the data were processed

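The deposited table holds raw counts, which the authors obtained with featureCounts by counting single reads on Ensembl release 90 models of mouse build GRCm38, without strand and without multi-mapping or ambiguous reads, per the file headers. Subread 1.5.2, STAR 2.4.1d and bcl2fastq stand in the submitters' processing notes. Libraries were made with SMARTer and Nextera XT, per the labels' protocols. Reads left out as multi-mapping made up 26.28% to 32.33% of a library. The gene length, deposited by the authors as another column, was used only for RPKM. Symbols came from a gene name table for 52403 of 52636 identifiers.

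The counts were tested with edgeR 4.0.16 (quasi-likelihood, TMM, filterByExpr by group, threshold 0.05) on all 6 libraries without a covariate. The groups are those of the labels. DESeq2 1.42.0, other scalings, no filter, a replicate block and left-out libraries were the alternatives. Fits were tested on simulated data. Same-numbered libraries deviated together from their group means (correlations 0.38, 0.34 and 0.19), which was taken as pairing. No 2 libraries held the same values. Members and lists were chosen with earlier results of these data known. Given with every library's value are members with an unadjusted p under 0.05 or groups that do not overlap, and the 2 with the highest RPKM in each role group. In the wider lists the genes named are those past the threshold, otherwise chosen among the 2 smallest p-values and 2 highest mean CPM. Exon sharing and repeated stretches came from GENCODE M21, and promoter windows from RefSeq on GRCm38.p6.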

Additional observations from a re-analysis of the deposited data

How the results depend on the processing

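Of the 33 sterol genes, 22 kept the sign of their log2 fold change under all 15 alternatives and 11 changed it under at least 1. With the replicate block, which pairs libraries by number, 0 sterol genes were higher and 0 lower in edgeR (7 and 2 at an unadjusted p under 0.05), since the adjusted p was 0.0823 for Osbpl3 and 0.0686 for Abca1. Over all genes the block gave 0 higher (1025 at an unadjusted p under 0.05) and 53 lower (1876 at that threshold), beside 19 and 184. DESeq2 called 3 sterol genes higher and 2 lower without the block (350 and 1609 over all genes) and 3 and 2 with it (585 and 1834 over all genes). Without the low-count filter 37 genes were higher and 282 lower.

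Leaving out 1 library in turn gave 0 to 0 sterol genes higher (3 to 7 at an unadjusted p under 0.05) and 0 to 0 lower (2 to 3) in edgeR, and over all genes 0 to 5 higher and 0 to 159 lower. The count of genes lower was 0 without KLRG1-negative library 3 or KLRG1-positive library 2, 1 without KLRG1-positive library 3 and 4 without KLRG1-negative library 2. Without both libraries of a number, a setting chosen after seeing the data like the block in DESeq2, 0 sterol genes passed in either direction (at an unadjusted p under 0.05, 1 to 5 were higher and 1 to 2 lower). Over all genes 3, 0 and 0 were then higher and 168, 0 and 0 lower without numbers 1, 2 and 3. At an unadjusted p under 0.05, 603, 866 and 406 of all genes were higher and 1656, 1338 and 1159 lower. The genes tested in these settings numbered 15564, 15456 and 15604.

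The 11 genes whose sign changed had log2 fold changes from -0.23 (Abcg1) to 0.22 (Osbpl8) with all libraries, and the cause was not tested. In log2, without the filter Hmgcs1 was 0.0634, Fdps 0.0264 and Tm7sf2 0.0122. Fdps was 0.0605 with the replicate block and 0.0573 with it in DESeq2. Srebf2 was -0.0131 under library size alone. Without both libraries numbered 1, Fdft1 was -0.12, Srebf2 -0.11, Insig1 0.0363, Npc2 0.0197 and Abcg1 0.12. Hmgcs1 was 0.14 without those numbered 2. Without those numbered 3, Hmgcs1 was 0.14, Fdps 0.54, Tm7sf2 0.11 and Osbpl8 -0.0670. Leaving out 1 library gave -0.30 to 0.23 for Hmgcs1, -0.32 to 0.55 for Fdps, -0.13 to 0.55 for Fdft1, -0.17 to 0.0686 for Tm7sf2, -0.0558 to 0.15 for Srebf2, -0.31 to 0.0833 for Insig1, -0.0622 to 0.51 for Insig2, -0.34 to 0.0119 for Nr1h2 and -0.41 to 0.16 for Abcg1. Outside the sterol genes it gave -0.11 to 0.22 for Acly, -0.16 to 0.26 for Fasn and -0.47 to 0.0344 for Gpr183, and Fasn was -0.0210 without both libraries numbered 2.

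The SE of a sterol gene's log2 fold change ran from 0.16 (Srebf2) to 0.91 (Nr1h3), with a biological coefficient of variation of 0.631 over all genes. For Nr1h3, Idi1, Fdps and Tm7sf2 the precision is also limited by levels under 10 CPM in every library.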
